A study of Saccharomyces cerevisiae with 210 samples.

Results

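SRX1 is the budding yeast gene for sulfiredoxin. It was taken as the gene named by 1 probe set of the array table, 1 of 5656 genes measured. The rule that picks its row uses the name and no measured value, but SRX1 was chosen with earlier results of these data known. Its level was followed in Saccharomyces cerevisiae labelled as BY4743, a diploid laboratory strain background. Wild type was set beside mutants labelled glr1, gpx1, gpx2, grx1, grx2 or yap1, and every genotype was grown as 6 batch cultures in aerated fermentors to mid-exponential phase. Of these 6, 3 received 0.19 mM CHP, read here as cumene hydroperoxide, an organic peroxide that the labels give only by its abbreviation, and 3 were left untreated as Control cultures. Every culture was sampled at 0, 3, 6, 12 and 20 min, the CHP cultures at 0 min just before the oxidant went in, which gave 210 arrays in 70 groups of 3. The labels do not say how the deletions were made or how many clones stand behind a mutant.

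Peroxiredoxins reduce peroxides with a cysteine that is itself oxidised in the process. When peroxide is plentiful that cysteine can be oxidised further to the sulfinic acid, which thioredoxin cannot reduce and which leaves the enzyme inactive as a peroxidase. Sulfiredoxin reduces the sulfinic form back at the cost of ATP, and in budding yeast its main known substrate is Tsa1. Yap1 is a bZIP transcription factor that is held in the nucleus when peroxide oxidises it through the peroxidase Hyr1 (also called Gpx3), and SRX1 is known as a target of Yap1 and Skn7. RNA levels say nothing of the amount or activity of the protein.

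Values are deposited log2 expression values, so a difference of 1 is a 2-fold difference, and the response at a time is the CHP mean minus the Control mean. Tests came from limma fitted over all genes and all groups, and a difference was called when its Benjamini-Hochberg adjusted p-value, taken across the whole array, lay below 0.05. Of the deleted genes, GLR1, GRX1, GRX2 and YAP1 were lower in every array of their own mutant than in any other array. GPX2 (3.22 to 4.34 in gpx2, 5.46 to 9.91 in wild type) and GPX1 (3.87 to 4.51 in gpx1, 4.85 to 6.21 in wild type) were lower than in any wild-type array but not than in every other array. The arrays labelled gpx2 went against their label in genes of cell type, which do not measure ploidy itself. In 5 of 11 genes that are specific to haploid cells or to one mating type, all 30 gpx2 arrays stood above every other array. The share of all genes in which they did so was not counted. Among the 5 was STE2, the receptor of a cells for alpha factor (6.29 to 8.80 against at most 4.27 elsewhere). The summed linear signal of the 11 genes ran from 2016.8 to 8797 in gpx2 arrays and from 283 to 1799 in the others, and STE3, the receptor of alpha cells, stayed between 3.39 and 4.15 in gpx2. The part of cell type in any gpx2 value was not tested. No SRX1 call of another genotype changed when the gpx2 arrays were left out.

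Another array stood apart before any result. In the wild-type cultures assigned to CHP, SRX1 at 0 min measured 10.99, 6.13 and 6.34. The first of these cultures was already close to the level it showed at 3 min, 11.10. In that 0 min array 13 of the 18 genes that were called and at least 2-fold higher in wild type at 3 min also exceeded all 41 other 0 min arrays. In those genes it therefore goes against its label. The share of all genes in which it exceeded every other 0 min array was not counted. Over all genes its root mean square distance was 0.297 from the other wild-type CHP cultures at 0 min, and 0.306 at 3 min. That distance hardly separates the times. At 3 min the same culture lay below both others in YHK8 (7.35 against 8.56 and 8.24) and GRE2 (9.22 against 10.02 and 10.04), as in SRX1. Its 3 min array was kept. The wild-type CHP group at 0 min alone gave 66.6% of the residual sum of squares of SRX1 in the fit. That widens the standard error of every SRX1 test. Results that depend on the 0 min array are given with and without it.

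CHP raised SRX1 more than any other gene within 3 min in every genotype that carries YAP1, and no rise was called in the yap1 mutant. In wild type at 3 min SRX1 measured 11.10, 12.01 and 11.72 in the CHP cultures and 6.35, 6.34 and 6.50 in the Control cultures. The groups did not overlap and lay 5.21 apart (SE 0.32), a 37.1-fold difference (95% interval 23.8 to 57.7, adjusted p = 1.48e-30 in limma). At 6 min the CHP cultures stood at 12.77, 12.76 and 12.75 and the Control cultures at 6.62, 6.43 and 6.38, a response of 6.28. The SD of the 3 CHP cultures was 0.46 at 3 min and 0.01 at 6 min. At 12 min the values were 13.16, 12.80 and 12.95 with CHP and 6.83, 6.53 and 6.62 without, a response of 6.31 or 79.3-fold (95% interval 50.9 to 123.4). At 20 min they were 12.77, 12.12 and 12.33 with CHP and 6.95, 6.75 and 6.47 without, a response of 5.69 or 51.5-fold (33.1 to 80.2). At each of these times every CHP culture lay far above every Control culture. Before CHP the response was 1.14 (adjusted p = 0.843), and limma called 0 genes in that comparison, with 242 at an unadjusted p below 0.05. Without the 0 min array that stood apart the difference was -0.44 (adjusted p = 0.680), and it was called higher when the second or the third wild-type CHP culture was left out (1.99 and 1.88).

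**Figure D1:**
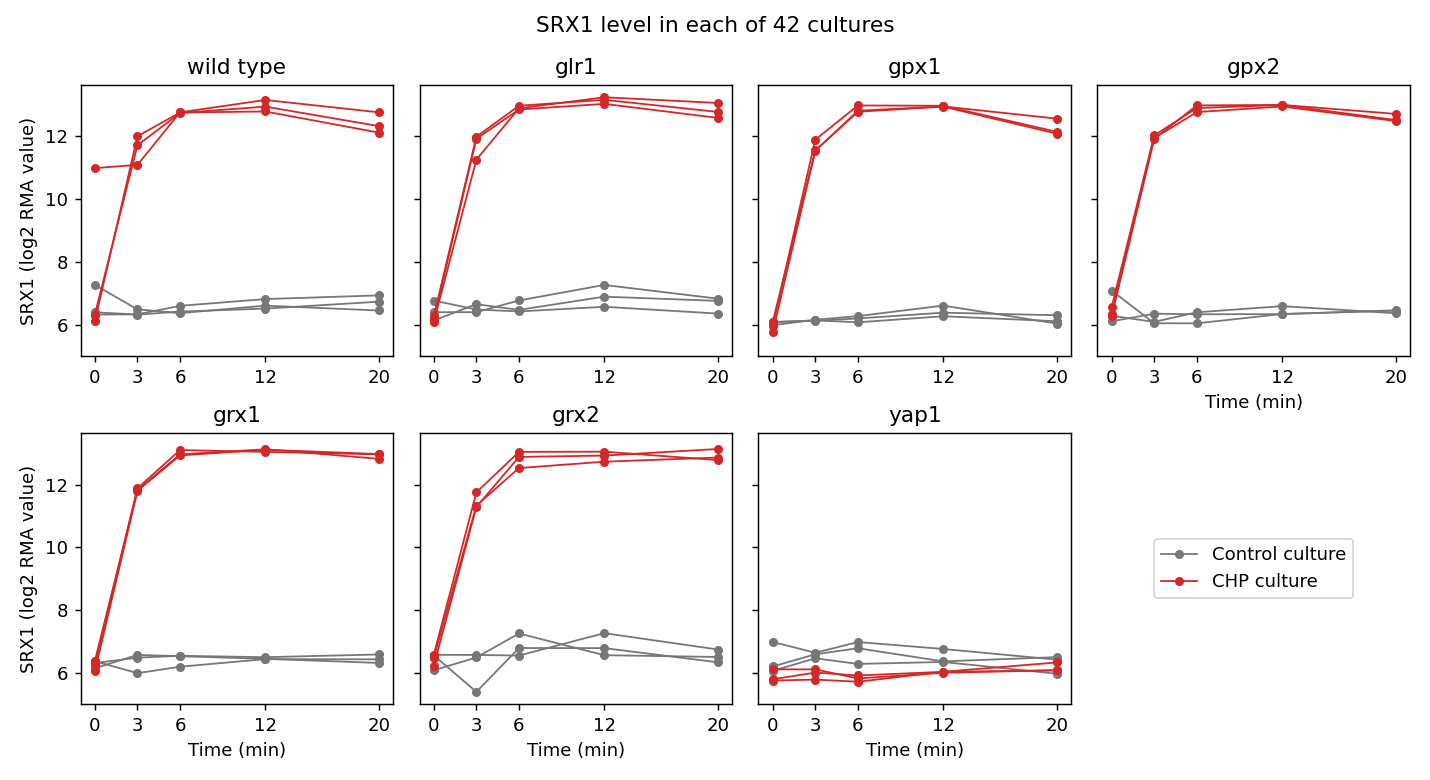
SRX1 level (log2 expression value, vertical axis) against time in minutes in each of the 42 cultures, with 1 panel per genotype, CHP cultures in red and Control cultures in grey. All CHP lines outside yap1 stand between 11.10 and 13.25 from 3 min on, the yap1 lines stay between 5.73 and 6.996, and 1 wild-type CHP culture starts at 10.99.

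The same rise appeared in the 5 mutants other than yap1. At 3 min the response was 5.20 for glr1, 5.51 for gpx1, 5.79 for gpx2, 5.48 for grx1 and 5.29 for grx2. At 6 min it was 6.34, 6.67, 6.62, 6.56 and 5.94 in the same order, and at 12 min 6.23, 6.53, 6.55, 6.62 and 6.01. At 20 min it was 6.15, 6.10, 6.14, 6.46 and 6.38. Each of these responses was called higher, with an SE of 0.32, as was each of those in wild type. Over the 72 CHP arrays from 3 min on outside yap1 the lowest SRX1 value was 11.10, and over all 105 Control arrays the highest was 7.28, so the arms did not overlap in any of the 6 genotypes.

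Few other genes rose at 3 min, and many had by 20 min. The share of all genes called higher at 3 min was 0.672% in wild type, 1.11% in glr1, 1.04% in gpx1, 1.08% in gpx2, 0.99% in grx1, and for the grx2 mutant 1.33%. At 6 min these shares were 4.05%, 10.8%, 4.42%, 3.77%, 4.12% and 6.15%. They grew to 10.7%, 19%, 13.8%, 14.3%, 12.2% and 16.7% at 12 min and to 16.7%, 29.3%, 22.8%, 24%, 22.7% and 26.1% at 20 min. No gene rose more than SRX1 at 3 min in any of the 6 genotypes. At 6 and 12 min 1 gene did in each of them, YHK8, which codes for a presumed transporter of the major facilitator superfamily (6.78 and 7.21 in wild type). At 20 min YHK8 (6.93), FRM2 (5.92), a nitroreductase-like gene, and OYE3 (5.86), an old yellow enzyme, exceeded SRX1 in wild type. The number of genes ahead of SRX1 at that time was 1 in glr1 and grx2, 2 in gpx2 and grx1 and 4 in gpx1. A value of 13.25, the highest of SRX1, lies below the highest value of the table, 14.57, and whether signals near the top of the scale were compressed was not tested.

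**Figure D2:**
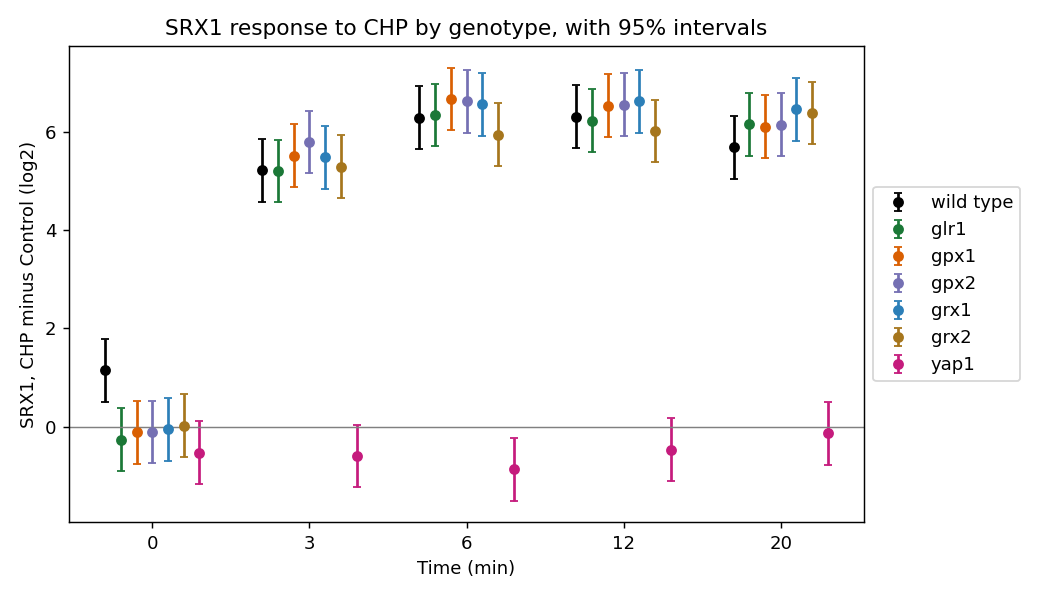
SRX1 response (CHP minus Control, log2, vertical axis) at each sampling time in minutes, 1 colour per genotype. Points are limma estimates over 3 cultures against 3 and bars are 95% intervals. The 6 genotypes with YAP1 lie between 5.20 and 6.67 from 3 min on, and yap1 lies between -0.86 and -0.13.

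In the yap1 mutant, which lacks the peroxide-responsive activator, no rise of SRX1 was called at any time. At 3 min the CHP cultures measured 6.02, 5.80 and 6.12 and the Control cultures 6.65, 6.47 and 6.60. At 6 min they measured 5.93, 5.73 and 5.84 with CHP and 6.99, 6.30 and 6.79 without. The CHP cultures lay below every Control culture at 3 and 6 min, and they did so again at 12 min (6.05, 6.05 and 6.01 against 6.77, 6.36 and 6.38). At 20 min the groups overlapped, with 6.34, 6.09 and 6.10 against 6.43, 5.99 and 6.51. The responses were -0.60, -0.86, -0.47 and -0.13 in the order of time, each with an SE of 0.32 and none called, the nearest at 6 min (adjusted p = 0.0557 in limma). Without the wild-type 0 min array that stood apart the SE fell to 0.19 and the difference at 6 min was called lower (adjusted p = 0.000495), in a comparison that called 14.2% of all genes. The arms of yap1 already differed by -0.53 before CHP (adjusted p = 0.297), where 1 Control culture stood at 6.996. Taken relative to that 0 min difference with the culture as a block, the responses were -0.07, -0.33, 0.06 and 0.40 in the order of time (SE 0.45), none called, so those at 12 and 20 min turned positive.

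The response in yap1 minus that in wild type was -5.81 at 3 min, -7.15 at 6 min, -6.78 at 12 min and -5.82 at 20 min, each with an SE of 0.46 and called. The adjusted p at 3 min was 1.15e-21 in limma, and 0.301% of all genes were called lower there. The shares called lower were 3.8% at 6 min, 9.39% at 12 min and 11.7% at 20 min. At 3, 6 and 12 min no gene lost more of its response in yap1 than SRX1, and at 20 min FRM2 (-6.07) and OYE3 (-6.43) did. YHK8 kept most of its late rise without YAP1, with 6.12 in yap1 at 20 min (SE 0.26) against 6.93 in wild type, a difference of -0.81 (adjusted p = 0.0922). At 3 min its response of 1.07 in yap1 was called higher (adjusted p = 0.0146) and differed from wild type by -1.84 (adjusted p = 0.000558).

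None of the other 20 differences of SRX1 response from wild type was called, in comparisons that called between 0 and 28% of all genes. They ran from -0.34 in grx2 at 6 min to 0.77 in grx1 at 20 min (95% interval -0.13 to 1.68), so the intervals do not show that the genotypes respond alike. The 6 wild-type cultures are shared by all these comparisons. At 20 min all 5 mutants lay above wild type, with 0.46 for glr1, 0.42 for gpx1, 0.45 for gpx2, 0.77 for grx1 and 0.70 for grx2. Without the wild-type 0 min array the last of these was called (adjusted p = 0.0405), in a comparison where 28% of all genes were called. Without the whole first wild-type CHP culture it was 0.88 (adjusted p = 0.0115), and the difference for grx1 was 0.95 and also called (adjusted p = 0.0376). The array left out holds no 20 min value, so leaving it out changes the SE of the grx2 difference and not its size. The second grx2 CHP culture also stood apart at 20 min in another way, with FAR1, a cell-cycle inhibitor of the mating pathway, at 10.4 there. The grx2 difference, not called in the main fit (adjusted p = 0.257 in limma), stayed without a call when that array alone was left out. That setting kept the wild-type 0 min array. It therefore cannot tell whether the call made without the wild-type array rests on the grx2 array.

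By level, the order of the CHP groups changed with time, and most neighbours in it overlapped. At 3 min gpx2 was highest (11.97 ± 0.06, SD, n = 3), followed by grx1 (11.84 ± 0.04), glr1 (11.73 ± 0.40), gpx1 (11.67 ± 0.20), wild type (11.61 ± 0.46) and grx2 (11.46 ± 0.26). At 20 min grx2 was highest (12.92 ± 0.18), followed by grx1 (12.92 ± 0.09), glr1 (12.81 ± 0.24), gpx2 (12.58 ± 0.12), wild type (12.41 ± 0.33) and gpx1 (12.27 ± 0.26). Apart from the step down to yap1, neighbouring groups failed to overlap only between gpx2 and grx1 at 3 min and between grx1 and gpx2 at 12 min.

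The rise came in steps that could be followed within single cultures. From 0 to 3 min SRX1 rose by 4.84 to 5.92 in 17 of the 18 CHP cultures outside yap1, the exception being the wild-type culture that started high, with 0.10. From 3 to 6 min all 18 cultures rose again, by 0.76 to 1.67. From 6 to 12 min 16 rose and 2 fell, with changes of -0.06 to 0.39. From 12 to 20 min 16 fell and 2 rose, by -0.86 to 0.21, and both that rose were grx2 cultures. The larger rise, 0.21, was in the second grx2 culture. Its 20 min array is the one with high FAR1 and had the lowest median over genes of all 210 arrays, 6.61. The highest of the 5 samples was that at 12 min in 14 cultures, at 6 min in 2 and at 20 min in 2, the same grx2 cultures. SRX1 thus stood at its highest 12 min after the oxidant in most cultures and was a little lower at 20 min.

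The first step was called higher in all 6 genotypes. Of all genes 0.389% were called higher in that step in wild type, 1.2% in glr1, 1.17% in gpx1, 1.31% in gpx2, 1.11% in grx1, and for the grx2 mutant 1.03%. Its size was 3.79 in wild type, a value lowered by the high start of 1 culture, and 5.02 to 5.71 in the mutants. The step from 3 to 6 min was called higher in wild type (1.15, adjusted p = 0.0169), glr1 (1.18), gpx1 (1.199), grx1 (1.16) and grx2 (1.36). In gpx2 it was 0.92 and not called (adjusted p = 0.0977). The shares of genes called higher were 2.35% in wild type, 5.48% in glr1, 3.68% in gpx1, 2.88% in gpx2, 3.22% in grx1, and for the grx2 mutant 3.55%. Leaving out 1 CHP culture ended the call in wild type (without the third, 1.21), glr1 (without the third, 0.96), grx2 (without the second, 1.24), gpx1 (without any 1 of 3, 1.16 to 1.25) and grx1 (without any 1 of 3, 1.13 to 1.17). Without the wild-type 0 min array all 6 were called, gpx2 among them (adjusted p = 0.000201, in a comparison calling 4.38% of all genes).

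The step from 6 to 12 min was not called in any genotype, nor was that from 12 to 20 min, in comparisons that called 11.8 to 34.6% of all genes. The late step was -0.56 in wild type, -0.34 in glr1, -0.69 in gpx1 (adjusted p = 0.127), -0.41 in gpx2, -0.17 in grx1, and for the grx2 mutant 0.03. Without the wild-type 0 min array it was called lower in wild type (adjusted p = 0.0354, with 11.9% of all genes called) and gpx1 (adjusted p = 0.00396, with 19.2%) and in no other genotype. That one genotype passed and another did not is no test of a difference between them, and the difference of steps was not tested. In untreated cultures SRX1 changed by -0.12 to 0.21 from 0 to 20 min, with no call in any of the 7 genotypes.

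**Figure D3:**
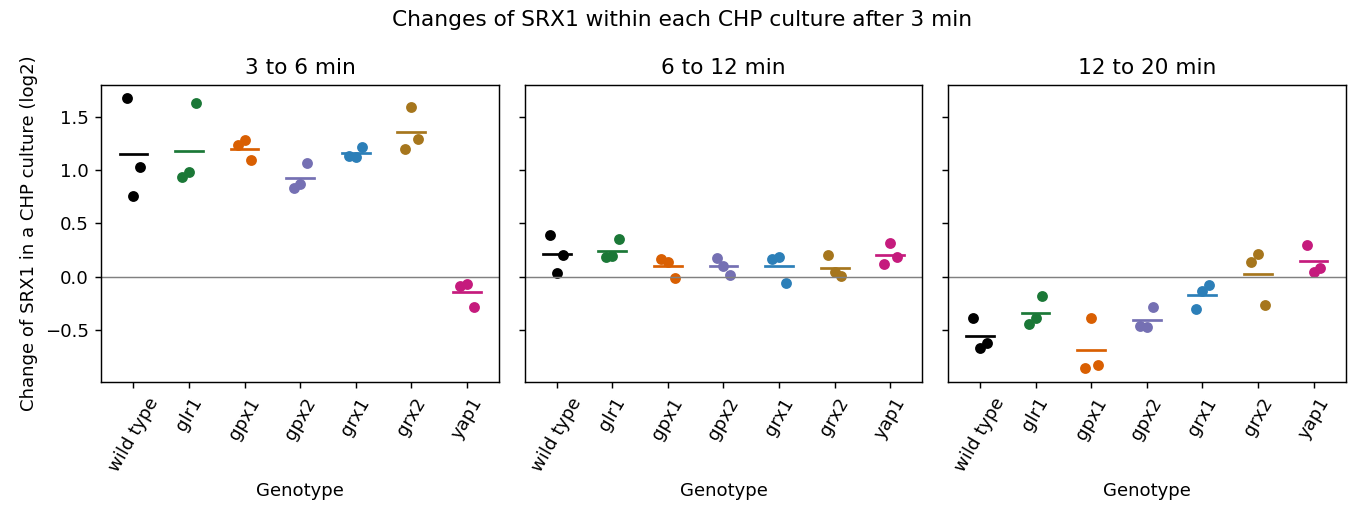
Change of SRX1 (log2, vertical axis) within each CHP culture from 3 to 6, 6 to 12 and 12 to 20 min, by genotype. Points are single cultures and lines are means of 3. All 18 cultures outside yap1 rose from 3 to 6 min by 0.76 to 1.67, and 16 of them fell from 12 to 20 min.

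Before CHP, once the array that stood apart is set aside, gpx1 was the only mutant in which SRX1 was called different from wild type. The 6 wild-type cultures averaged 7.25 ± 1.88 (SD), and 6.50 ± 0.45 over the 5 others, which ran from 6.13 to 7.28. The 6 cultures averaged 6.32 ± 0.25 for glr1, 6.01 ± 0.13 for gpx1, 6.45 ± 0.35 for gpx2, 6.26 ± 0.13 for grx1, 6.43 ± 0.21 for grx2 and 6.16 ± 0.44 for yap1. Against all 6 wild-type cultures SRX1 was called lower in gpx1 (-1.24), gpx2 (-0.79), grx1 (-0.99), grx2 (-0.82) and yap1 (-1.08), and not in glr1 (-0.93, adjusted p = 0.0660 in limma). The shares of genes called lower were 0.053% in glr1, 12.6% in gpx1, 11.3% in gpx2, 9.34% in grx1, and 12.3% and 3.08% in grx2 and yap1. Without the single array the calls in gpx2, grx1, grx2 and yap1 were lost, with differences of 0.000103, -0.19, -0.028 and -0.29. The call in gpx1 held (-0.45, adjusted p = 0.0133), in a comparison that called 28.1% of all genes, and all 6 gpx1 cultures (5.77 to 6.10) lay below the 5 remaining wild-type cultures. An exact two-sided permutation test of SRX1 alone gave p = 0.00216 for gpx1 both with and without the array, the smallest p that 6 against 5 or, in this two-sided form, 6 against 6 cultures can give. It gave an adjusted p of 0.0130 over the 6 mutants, and of 0.281 or more for each of the others, or 0.550 or more without the array.

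SRX1 (locus YKL086W) lies on chromosome XI between CYT2 and MDH1 in the RefSeq annotation of assembly R64. CYT2 (YKL087C) is transcribed away from it on the opposite strand, so the pair shares an upstream region, and MDH1 (YKL085W) lies on its other side. CYT2 codes for the enzyme that attaches haem to cytochrome c1, and MDH1 for mitochondrial malate dehydrogenase. The array files name no genome build, so coordinates are not given.

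CYT2 rose with CHP in every genotype with YAP1, by far less than SRX1. In wild type at 12 min CYT2 measured 9.11, 9.01 and 9.35 with CHP and 7.77, 7.47 and 7.49 without, groups that did not overlap. Its response was 0.80 at 3 min, 1.03 at 6 min, 1.57 at 12 min and 0.76 at 20 min (SE 0.17), called higher at all 4 times in all 6 genotypes, with values from 0.76 to 1.91. In yap1 at 12 min CYT2 measured 7.22, 7.25 and 7.60 with CHP and 7.72, 7.79 and 8.10 without, groups that again did not overlap, and its response of -0.51 was called lower (adjusted p = 0.0149). At the other times it was -0.25, -0.26 and -0.35 there and not called. The CYT2 response in yap1 minus that in wild type was -1.04 at 3 min, -1.30 at 6 min, -2.09 at 12 min and -1.10 at 20 min, all called (adjusted p = 0.0114 at 3 min in limma). In the wild-type 0 min array that stood apart CYT2 measured 7.88, against 7.26 and 7.21 in the other CHP cultures. MDH1 did not follow. It was not called at 3 or 6 min in any genotype. At 12 min it was called lower in 2 of the 6 genotypes with YAP1 and in yap1 (-0.48, adjusted p = 0.0271), and at 20 min it was called lower in 5 of the 6 genotypes with YAP1, with -0.64 in wild type (adjusted p = 0.00177). Its response at that time was 0.20 in grx2 and -0.29 in yap1, neither called.

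**Figure D4:**
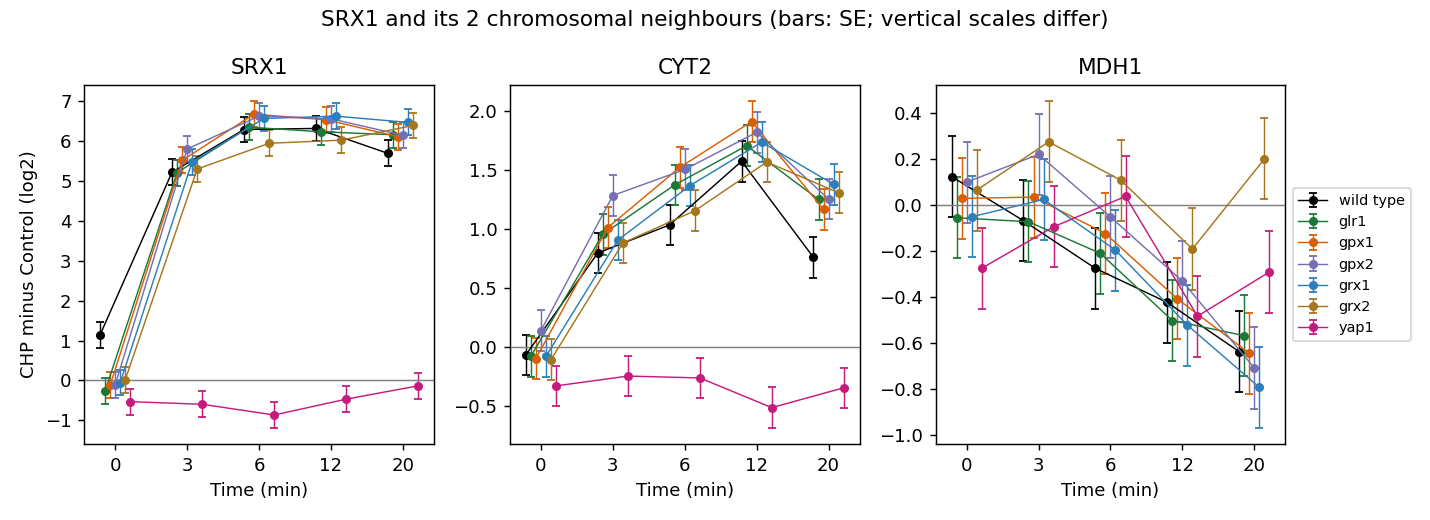
Responses (CHP minus Control, log2, vertical axes with different scales) of SRX1 and its neighbours CYT2 and MDH1 on chromosome XI against time in minutes, 1 line per genotype with bars of 1 SE. CYT2 lies between 0.76 and 1.91 from 3 min on in the 6 genotypes with YAP1 and below 0 in yap1, whereas MDH1 runs downward to -0.79 in grx1 at 20 min.

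Over the 70 group means the gene with the highest Pearson correlation with SRX1 was ISU2 (r = 0.96), a scaffold protein of iron-sulfur cluster assembly. MRX16 (0.96), YML131W (0.95), CYT2 (0.95) and TRR1 (0.95), the cytosolic thioredoxin reductase, came next. ATR1 (0.95), a multidrug transporter, followed with CIS1, MRS4, YLR460C and RCR2. Over the 60 group means without yap1 GRE2 (0.99), a methylglyoxal reductase, was first and CYT2 the 10th. These correlations describe group means that share cultures, arrays and the step at 3 min, and they carry no test. GRE2 rose by 2.03 in wild type at 3 min and ISU2 by 1.67, against 5.21 for SRX1.

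Genes around sulfiredoxin were described by a list of 33, chosen by their roles with earlier results of these data known: peroxiredoxins, the thioredoxin system, peroxide sensing, other scavengers, methionine sulfoxide reductases, glutathione genes, and chaperones and translation control tied to hyperoxidised peroxiredoxin. All 33 were measured. In wild type 4 were called higher and 0 lower at 3 min, 11 and 1 at 6 min, 18 and 0 at 12 min, and 20 and 1 at 20 min. Of all genes, 0.106% were called lower at 3 min, 8.68% at 6 min, 19.5% at 12 min and 21.9% at 20 min, and the shares higher are those given for wild type above. The median response of the 33 was -0.01 at 3 min and 0.51 at 20 min, beside -0.06 and -0.04 over all genes. In the other 5 genotypes with YAP1, 19 to 24 of the 33 were called higher at 20 min, with a mutant's own deleted gene kept in the count. In yap1 8 were called higher and 2 lower at 20 min, where 18.2% of all genes were called higher and 26.3% lower. The 4 genes that rose in wild type at 3 min, when SRX1 had already risen 37.1-fold, were GPX2 (1.83), TRR1 (0.71), TSA2 (0.65) and TRX2 (0.58). Without the second wild-type CHP culture 2 of the 33 were called at that time, and without the first 5.

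Among the peroxiredoxins, the substrate class of sulfiredoxin, the changes were uneven. TSA1, the abundant cytosolic enzyme, had a response of 0.06 in wild type at 3 min and 0.03 at 6 min, neither called, and of 0.24 at 12 min and 0.35 at 20 min, both called higher. At 6 min it was called higher in 4 of the 5 other genotypes with YAP1. In yap1 TSA1 was called lower at 6 min (-0.22, adjusted p = 0.0400) and 12 min (-0.19, adjusted p = 0.0463) and not at 3 or 20 min. The TSA1 response in yap1 minus that in wild type was called at 12 min (-0.43, adjusted p = 0.00130 in limma) and 20 min (-0.43, adjusted p = 0.00126). It was not called at 3 or 6 min. TSA2, its inducible relative, rose less than SRX1 at 3 and 6 min. In wild type at 3 min it measured 5.79, 6.27 and 6.00 with CHP against 5.43, 5.22 and 5.45 without. At 20 min it stood at 11.39, 11.28 and 11.07 against 5.64, 5.45 and 5.82, so that its response of 5.61 (SE 0.17) was close in size to that of SRX1, 5.69. At 6 min the responses were still apart, 3.15 for TSA2 and 6.28 for SRX1. In yap1 TSA2 reached 5.92, 6.36 and 6.48 at 20 min against 4.94, 5.15 and 5.27, a called rise of 1.14 that differed from wild type by -4.47 (adjusted p = 2.01e-38). PRX1, the mitochondrial peroxiredoxin, rose by 2.40 in wild type at 20 min and was called lower in yap1 (-0.65, adjusted p = 0.00145). DOT5, the nuclear one, rose in all 6 genotypes with YAP1 at 20 min (0.41 to 0.72), and AHP1, another cytosolic peroxiredoxin, in 2 of them. AHP1 was called lower in yap1 at 12 min (-0.45, adjusted p = 0.00856 in limma), with a called difference from wild type of -0.52 (adjusted p = 0.0473).

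In the thioredoxin system, which reduces oxidised peroxiredoxins, TRX2 and TRR1 rose in all 6 genotypes with YAP1 from 3 min on. In wild type their responses at 20 min were 1.51 for TRX2 and 1.76 for TRR1, and in yap1 0.21 and 0.20, neither called. The differences from wild type, -1.30 for TRX2 (adjusted p = 5.95e-09) and -1.56 for TRR1 (adjusted p = 1.60e-16), were called. TRX1, the other cytosolic thioredoxin, was not called at any time after CHP in any of the 7 genotypes. The mRNA of YAP1 itself had a response of 0.03 at 3 min in wild type, not called, and rose by 0.65 at 6 min, 0.98 at 12 min and 0.92 at 20 min. Of the other sensing genes, SKN7 and HYR1 were not called at 3 min in any genotype, and HYR1 was higher in 5 of the 6 genotypes with YAP1 at 20 min. SKN7 was called lower in 4 of those 6 at 12 min and in 1 at 20 min, and higher in yap1 at 20 min (0.33, adjusted p = 0.0153). Its response in yap1 minus that in wild type was 0.51 at 12 min (adjusted p = 0.0172) and 0.44 at 20 min (adjusted p = 0.0407), both called. CAD1 was called higher at 12 and 20 min in all 6 genotypes with YAP1 and in yap1 (0.70 at both times), with no called difference from wild type. YBP1 and CRM1 were called in at most 1 of those 6 genotypes at any time, and never in yap1.

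Other peroxide scavengers rose with SRX1 or after it. In wild type at 20 min GPX2, a peroxidase of the glutathione peroxidase family, had risen by 3.90, CTA1, the peroxisomal catalase, by 2.98, and CCP1, the mitochondrial cytochrome c peroxidase, by 1.79. None of these 3 was called in yap1 at that time (0.37 for GPX2, -0.07 for CTA1 and -0.19 for CCP1). CTT1, the cytosolic catalase, differed from these. At 12 min CTT1 was called higher in all 6 genotypes with YAP1, with 1.61 in wild type, and its response in yap1 (0.47, not called) lay below that in wild type by a called difference of -1.14 (adjusted p = 0.0333). Its response at 20 min was 0.65 in wild type, not called, and it was called higher in the other 5 genotypes with YAP1, up to 3.41. It rose by 3.21 in yap1, 2.56 above wild type (adjusted p = 2.54e-07). GPX1, also on the list, had a called difference in yap1 minus wild type at 6 min (-0.92, adjusted p = 0.0396 in limma). The difference was not called at 12 min (-0.54, adjusted p = 0.213) or at 20 min (0.40, adjusted p = 0.382). At 20 min GPX1 was called higher in yap1 (0.84, adjusted p = 0.000641) and in 4 of the 6 genotypes with YAP1. All 5 glutathione genes were called higher in wild type at 20 min, among them GSH1, the first enzyme of glutathione synthesis, by 1.23. None of the 5 was called in yap1, with 0.33 for GSH1. MXR1, a methionine sulfoxide reductase, was higher in all 6 genotypes with YAP1 at 20 min and also in yap1 (0.66). The disaggregase HSP104 likewise rose both in wild type (1.10) and in yap1 (1.48), a difference of 0.37 that was not called. The other listed chaperone and translation genes did not follow it at 20 min. Of the 6 genotypes with YAP1, SSA1 was called higher in 1, SSA2 higher in 1 and lower in 1, GCN2 lower in 3 and GCN4 lower in 1. In yap1 SSA2 was called lower (-0.44) and GCN4 higher (0.58), and SSA1 and GCN2 were not called.

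**Figure D5:**
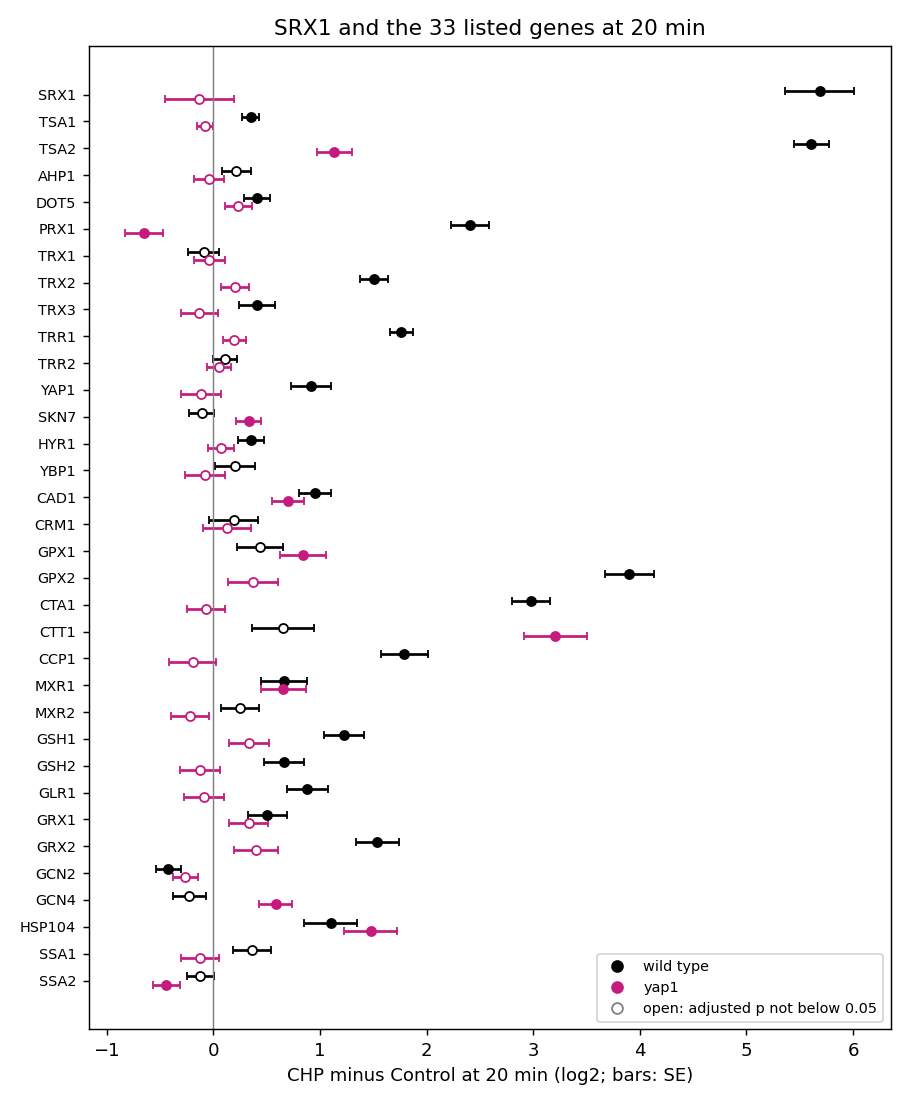
Response at 20 min (CHP minus Control, log2, horizontal axis) of SRX1 and the 33 listed genes in wild type (black) and yap1 (pink), with bars of 1 SE and open symbols where the adjusted p was not below 0.05. SRX1 at 5.69 and TSA2 at 5.61 lead in wild type, and in yap1 SRX1 lies at -0.13 while CTT1 stands at 3.21.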

How the data were processed

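RNA was hybridised to Affymetrix Yeast Genome S98 arrays, per the labels' protocols. The deposited values are on a log2 scale, and the submitters' processing notes name RMA without its version or settings. The array annotation gave 1 gene for 6504 of 9335 probe sets, several for 328 and none for 2443, and 60 were controls. Where several probe sets named a gene (315 genes), that with the highest mean was kept. SRX1 has 1.

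Group means were fitted with limma 3.58.1 in R 4.3.3 over 5656 genes and 210 arrays, and p-values were adjusted over all genes for each contrast. SRX1 and the gene lists were chosen with earlier results of these data known. The genes named are SRX1, the lists, its neighbours, the deleted genes, the 10 most like it by Pearson's r, and those that changed more. The fit was tested on simulated data. The 5 samples of each culture are not independent, and the number of arrays limits precision.

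Within a culture the median correlation over samples was above 0.1 in 41 of 42 cultures.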

Additional observations from a re-analysis of the deposited data

Results flagged for a closer look

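Before CHP, 1 of 6 cultures was flagged in 3 of the 7 genotypes, where chance gives about 1 in 20. The flag sets the gap to the nearest culture against the range of all 6, so a flagged value need not lie far off. These were the first wild-type CHP culture with SRX1 at 10.99 (gap over range 0.763), the first gpx1 CHP culture at 5.77 (0.634) and the first yap1 Control culture at 6.996 (0.636). The gpx1 culture nearest to 5.77 measured 5.98. The gpx1 value lies within the 5.41 to 7.28 spanned by the Control arrays, and the wild-type value does not. The yap1 value is itself from a Control array and so lies within that span by definition. What set them apart was not tested. The response of SRX1 differed between yap1 and wild type by -5.81 at 3 min, -7.15 at 6 min, -6.78 at 12 min and -5.82 at 20 min, by the test of the difference itself in limma.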

How the results depend on the processing

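All 110 results were recomputed under other settings, 42 of which left out 1 culture, and calls not named here kept their direction and side of the threshold, the responses of the 6 genotypes with YAP1 from 3 min on and the yap1 differences among them. Of the results that were not called, 18 changed sign under at least 1 setting, none of them called there, and values near 0 therefore have no settled direction. Values are log2 differences with adjusted p from limma. Without the wild-type 0 min array, the differences before CHP became 0.000103 in gpx2, which reversed, -0.19 in grx1, -0.028 in grx2 and -0.29 in yap1, none called. The same setting called the yap1 response at 6 min (-0.86), the grx2 difference at 20 min (0.70, and 0.70 also without the 3 min array, chosen after seeing the data), the late step in wild type (-0.56) and gpx1 (-0.69), and the 3 to 6 min step in gpx2 (0.92). Array quality weights gave -0.33 for gpx2 and -0.30 for grx2 before CHP, no longer called, and called -0.91 for yap1 at 6 min, -0.79 and -0.67 for the late step in gpx1 and wild type and 0.92 for the gpx2 step. Fitting only the genotypes compared ended the calls before CHP in gpx2 (-0.79) and grx2 (-0.82) and of the wild-type 3 to 6 min step (1.15, adjusted p = 0.447), and called yap1 at 6 min (-0.86), the late step in gpx1 (-0.69) and gpx2 (-0.41) and the gpx2 step (0.92). Quantile normalization called glr1 before CHP (-0.93, adjusted p = 0.0411), genes above the median level called yap1 at 6 min (-0.86, adjusted p = 0.0489), and the culture as a random block called the gpx2 step (0.92, adjusted p = 0.0415). Same-numbered CHP and Control cultures deviated together (r over 0.1) in 51 of 105 pairs, at all 5 times for 5 of 21 numbers and at no time for 4. The main fit did not pair the arms by number, and these values do not show that they are unpaired in every genotype. With a replicate block of genotype and number, yap1 at 6 min was called (-0.86, adjusted p = 0.0382), and that block changed no other call. Leaving out 1 culture moved the differences before CHP over -1.35 to -0.14 in glr1, -1.22 to 0.000103 in gpx2, -1.41 to -0.19 in grx1, -1.24 to -0.028 in grx2 and -1.51 to -0.29 in yap1. In glr1 the call appeared without its first Control culture (-1.01) or without wild-type CHP culture 2 (-1.35) or 3 (-1.30), and in gpx2 it ended without wild-type Control culture 3 (-0.64). The other ranges were 0.63 to 0.95 for grx1 and 0.55 to 0.88 for grx2 minus wild type at 20 min, -0.44 to 1.99 for wild type at 0 min, -1.06 to -0.71 for yap1 at 6 min (called without its second Control culture), and 2 to 5 listed genes in wild type at 3 min. For the 3 to 6 min step they were 0.96 to 1.31 in glr1, 1.16 to 1.25 in gpx1, 1.13 to 1.17 in grx1, 1.24 to 1.44 in grx2 and 0.89 to 1.35 in wild type. The causes were not tested.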
